A study of Mus musculus with 12 samples.

Results

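The 36 genes described here encode the pyruvate dehydrogenase complex, the enzymes of the tricarboxylic acid (TCA) cycle, the enzymes that break down the branched-chain amino acids leucine, isoleucine and valine, and a small group that handles glutamate, aspartate and creatine. They were chosen by gene symbol from a list of these pathways, and all 36 were found among the 54532 genes of the count table. RNA was sequenced from whole kidneys of 12 mice aged 18 days, with 3 mice in each of 4 groups. The study asked whether deleting the miR-17 binding motif from the 3′-UTR of *Pkd2*, the gene of Polycystin-2, changes polycystic kidney disease caused by mutation of *Pkd1*.

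All 12 mice were kept on a C57BL/6 J background and carried the hypomorphic RC allele of *Pkd1* together with a floxed *Pkd1* allele. The noncystic *Pkd2* +/+ group (titled Pkd1_RC, mice 19 to 21) had no Cre and an unedited *Pkd2*, and is written *Pkd1* RC/+ in the study. The noncystic *Pkd2* Δ17/Δ17 group (titled Pkd1_RC_Pkd2_UTR_DD, mice 22 to 24) had no Cre and lacked the motif on both *Pkd2* alleles. The cystic *Pkd2* +/+ group (titled Pkd1F_RC, mice 25 to 27) carried KspCre, which recombines the floxed allele in kidney tubule cells and leaves them *Pkd1* RC/-. The cystic *Pkd2* Δ17/Δ17 group (titled Pkd1F_RC_Pkd2_UTR_DD, mice 28 to 30) carried KspCre and the motif deletion. The labels name no drug treatment. Cre acts only in the tubule cells that express it, so each cystic library mixes recombined and unrecombined cells. In whole kidney, fewer cells of a type and less RNA per cell cannot be told apart, and that holds for every value below.

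Pyruvate dehydrogenase turns pyruvate into acetyl-CoA, which the TCA cycle oxidises to carbon dioxide while it charges the electron carriers used by the respiratory chain. The branched-chain amino acids are first transaminated and then decarboxylated by a complex built like pyruvate dehydrogenase. Their carbon later joins the cycle as acetyl-CoA or, through propionyl-CoA, as succinyl-CoA. The proximal tubule of the kidney is densely packed with mitochondria, since reabsorption of sodium and solutes depends on oxidative metabolism. It also takes up glutamine and glutamate and is a main site of the synthesis of guanidinoacetate, the precursor of creatine.

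The 12 libraries held between 18800307 and 24453033 counts, and each of the 36 genes had between 412 and 28040 counts in every mouse, so all 36 passed the filter on low counts. Levels are given in CPM, counts scaled to a common library size with TMM factors, which ran from 0.933 to 0.972 in noncystic and from 1.04 to 1.08 in cystic kidneys. Among noncystic mice *Pkd2* itself averaged 209.8 ± 13.9 CPM with the motif and 278 ± 7.68 CPM without it (SD, n = 3). Among cystic mice it averaged 226 ± 11.1 CPM with the motif and 326 ± 16.7 CPM without it. It was called higher without the motif in cystic kidneys, by 0.53 on the log2 scale (adjusted p = 0.00250 in edgeR), and was not called in noncystic kidneys, where the value was 0.40 (adjusted p = 0.771 in edgeR). Some libraries stood apart in markers of neighbouring tissue. Summed adrenal markers were 54.2 CPM in mouse 27 and 391 CPM in mouse 30 against 3.84 to 6.71 CPM in the other 10 mice, and summed fat markers reached 1346 CPM in mouse 20 against 139 to 760.4 CPM in the other 11.

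Per length of transcript, the most abundant of the 36 genes in noncystic *Pkd2* +/+ kidneys was *Mdh1* at 679 ± 55.4 RPKM (CPM per kilobase of transcript, SD, n = 3). It was followed by *Idh2* at 449 ± 16.3, *Gatm* at 419 ± 12.6 and *Mdh2* at 404 ± 41.6 RPKM, and the mean ± SD range of *Mdh2* overlapped those of *Idh2* and *Gatm*. The lowest levels per length were those of *Hibch* at 30.5 ± 4.57, *Acad8* at 27.7 ± 0.887 and *Bckdha* at 21.7 ± 3.65 RPKM. *Hibch* and *Acad8* overlapped within their SD and *Bckdha* lay below both. Of the 7 highest genes 6 were listed here under the TCA cycle, among them the cytosolic *Mdh1*, and the 6 lowest all belonged to branched-chain breakdown.

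Promoter sequence was searched as a description only, and no link between it and the levels of the 36 genes was tested. RefSeq promoter windows on GRCm38.p6, running from 250 bases before to 50 after a start site, were given for 34 of the 36 genes and for 27025 genes in all. The letters CCGGAAG, the core of the motif bound by ETS factors such as GABP, stood on either strand in the windows of 5 of the 34 genes (14.7%), *Auh*, *Dlst*, *Glud1*, *Idh3b* and *Idh3g*, and in 9.93% of all genes. The estrogen-related receptor element TCAAGGTCA, the NRF1 motif and the YY1 motif were in the windows of 0 of the 34 genes, against 0.466%, 1.07% and 0.755% of all genes. These matches describe letters and are not binding sites. The 3 matches that lie wholly before the start site are shown on the strand of the gene, with the matched letters in capitals, at chr13:52929898-52929927 for *Auh* (minus strand), chr14:34310489-34310518 for *Glud1* (plus strand) and chrX:73786983-73787012 for *Idh3g* (minus strand).
Auh: atcttccttcCTTCCGGgatggtcagtcac
Glud1: acgggaccgacCTTCCGGgccgcggccgcg
Idh3g: tgctctaggcaCCGGAAGggggcgtaagaa

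Every one of the 36 genes had a lower CPM in cystic kidneys. CPM is relative to the library and does not give an amount per kidney. In *Pkd2* +/+ mice, all 36 were called lower in cystic than in noncystic kidneys, and in all 36 the 3 cystic mice lay below the 3 noncystic mice. Of all 24642 genes tested, 14.2% were called lower, and 19.7% had cystic mice that all lay below the noncystic mice. Among the 6976 genes with an average level at or above that of the lowest of the 36, the share called lower was 27.5%. The median log2 fold change of the 36 genes was -0.88, against 0.02 over all genes tested, and single genes ran from -1.55 for *Aldh6a1* to -0.42 for *Got1*. By role, the medians were -0.57 for the 3 pyruvate dehydrogenase genes, -0.76 for the 14 TCA cycle genes, -0.96 for the 15 branched-chain genes and -0.77 for the 4 glutamate, aspartate and creatine genes. As a share of the noncystic *Pkd2* +/+ mean, the cystic *Pkd2* +/+ means ran from 34.2% to 74.9% with a median of 54.5%. All 36 genes together summed to between 12743 and 13922 CPM in noncystic and to between 6852 and 7519.7 CPM in cystic *Pkd2* +/+ kidneys. Calls are at an adjusted p under 0.05 by the quasi-likelihood test of edgeR, Benjamini-Hochberg adjusted over all genes tested. In the values that follow, groups are written noncystic +/+, noncystic Δ17/Δ17, cystic +/+ and cystic Δ17/Δ17 after their *Pkd2* genotype, and mice stand in the order of their numbers.

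**Figure D1:**
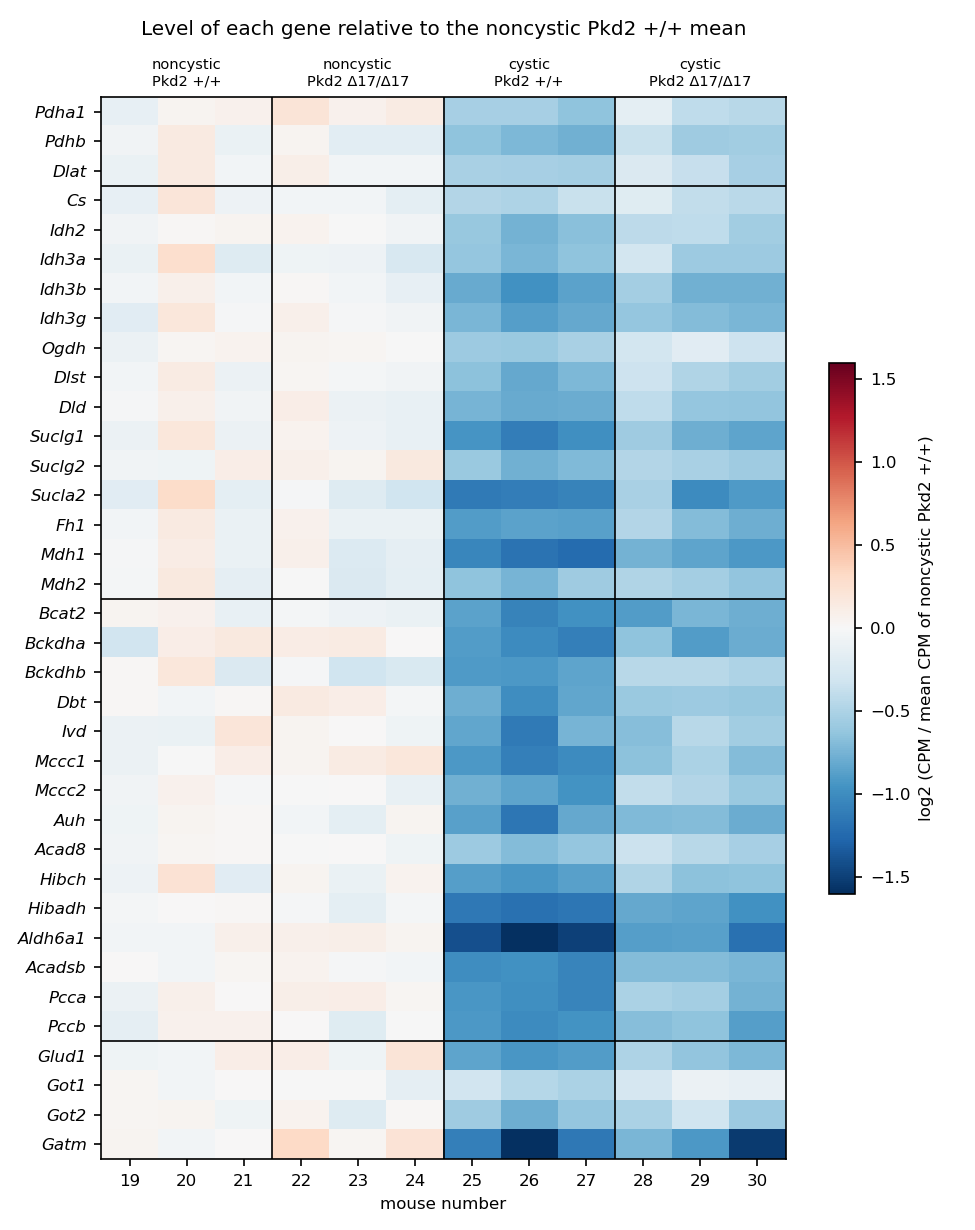
Colour gives the log2 ratio of each gene's CPM in each mouse to the mean of the 3 noncystic *Pkd2* +/+ mice, with genes in rows by role (pyruvate dehydrogenase, TCA cycle, branched-chain catabolism, then glutamate, aspartate and creatine) and mice 19 to 30 in columns by group. The 3 cystic *Pkd2* +/+ columns are the darkest blue, with a median gene at 54.5% of the noncystic mean, and the 3 cystic *Pkd2* Δ17/Δ17 columns are paler, with a median gene at 66.3%.

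The pyruvate dehydrogenase genes fell least as a group. *Pdha1* and *Pdhb* encode the alpha and beta subunits of its decarboxylase (E1), and *Dlat* encodes the acetyltransferase core (E2). *Pdha1* read 295, 333 and 339 CPM in noncystic +/+ kidneys and 373, 339 and 353 CPM in noncystic Δ17/Δ17 kidneys. Cystic *Pdha1* levels were 224, 223 and 207 CPM in cystic +/+ kidneys and 290.4, 243 and 238 CPM in cystic Δ17/Δ17 kidneys, and its exons overlap *Map3k15* on the other strand of the X chromosome. The cystic +/+ mice were the 3 lowest of the 12 for *Pdha1*. *Pdhb* read 359, 413 and 346 CPM in noncystic +/+ kidneys, 385, 331 and 331 in noncystic Δ17/Δ17 kidneys, 239, 226 and 219 in cystic +/+ kidneys and 290.4, 252 and 253 in cystic Δ17/Δ17 kidneys. *Dlat* read 200.5, 238 and 208 CPM in noncystic +/+ kidneys, 229, 209.7 and 209 in noncystic Δ17/Δ17 kidneys, 150.1, 149.5 and 148 in cystic +/+ kidneys and 183, 167 and 149 in cystic Δ17/Δ17 kidneys. For all 3 genes the cystic +/+ mice lay below every noncystic mouse, at log2 fold changes of -0.57 for *Pdha1*, -0.71 for *Pdhb* and -0.53 for *Dlat*.

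The entry enzyme of the TCA cycle showed a small decrease. *Cs* (chr10:128337734-128362479, plus strand) encodes citrate synthase, which joins acetyl-CoA to oxaloacetate. It read 347, 437 and 361 CPM in noncystic +/+ kidneys and 369, 372 and 342 CPM in noncystic Δ17/Δ17 kidneys. Cystic *Cs* levels were 276, 270.0 and 298 CPM in cystic +/+ kidneys and 335, 289 and 284 CPM in cystic Δ17/Δ17 kidneys. The *Cs* decrease in *Pkd2* +/+ mice, at -0.44 ± 0.0964 (SE, adjusted p = 0.00193 in edgeR), was the second smallest of the 36 after that of *Got1*.

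Isocitrate dehydrogenase exists in an NADP form, *Idh2*, and an NAD form made of the subunits *Idh3a* (catalytic), *Idh3b* and *Idh3g*. *Idh2* read 752, 796 and 805 CPM in noncystic +/+ kidneys and 816, 781 and 757 CPM in noncystic Δ17/Δ17 kidneys. Its levels in cystic kidneys were 515, 463 and 492 CPM in cystic +/+ kidneys and 587, 591 and 535 CPM in cystic Δ17/Δ17 kidneys, with cystic +/+ below cystic Δ17/Δ17 mice and both below all noncystic mice. *Idh3a* read 312, 403 and 291 CPM in noncystic +/+ kidneys, 321, 318 and 279.9 in noncystic Δ17/Δ17 kidneys, 218, 202 and 214 in cystic +/+ kidneys and 273, 224 and 224 in cystic Δ17/Δ17 kidneys. *Idh3b*, whose exons overlap *Nop56* on the other strand, read 485, 529 and 485 CPM in noncystic +/+ kidneys, 507, 486 and 457 in noncystic Δ17/Δ17 kidneys, 285, 256 and 275 in cystic +/+ kidneys and 341, 294 and 293 in cystic Δ17/Δ17 kidneys. *Idh3g*, on the X chromosome, read 372, 477 and 415 CPM in noncystic +/+ kidneys, 444, 416 and 406 in noncystic Δ17/Δ17 kidneys, 253, 228 and 238 in cystic +/+ kidneys and 274, 261 and 253 in cystic Δ17/Δ17 kidneys. The 3 subunits of the NAD form all fell in *Pkd2* +/+ mice, at -0.67, -0.88 and -0.81 on the log2 scale, and *Idh2* at -0.68.

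The oxoglutarate dehydrogenase complex makes succinyl-CoA from 2-oxoglutarate with the subunits *Ogdh* (E1), *Dlst* (E2) and *Dld* (E3). *Dld* is shared with pyruvate dehydrogenase and the branched-chain complex. *Ogdh* read 476, 516 and 529.8 CPM in noncystic +/+ kidneys and 524, 520.0 and 505 CPM in noncystic Δ17/Δ17 kidneys. Cystic *Ogdh* levels were 339.6, 337 and 354 CPM in cystic +/+ kidneys and 414, 447 and 404 CPM in cystic Δ17/Δ17 kidneys. The cystic Δ17/Δ17 mice lay between the cystic +/+ and the noncystic mice for *Ogdh*. *Dlst* read 429.8, 486 and 416 CPM in noncystic +/+ kidneys, 455, 433 and 427 in noncystic Δ17/Δ17 kidneys, 281, 251 and 269 in cystic +/+ kidneys and 353, 317 and 302 in cystic Δ17/Δ17 kidneys. *Dld* read 384, 411 and 373 CPM in noncystic +/+ kidneys, 419, 365 and 358 in noncystic Δ17/Δ17 kidneys, 232, 222 and 225 in cystic +/+ kidneys and 294, 254 and 250.4 in cystic Δ17/Δ17 kidneys. Cystic +/+ mice lay below all other mice for each of these 3 subunits, and the decreases were -0.56 for *Ogdh*, -0.73 for *Dlst* and -0.78 for *Dld*.

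Succinyl-CoA synthetase, which makes ATP or GTP directly, held 2 of the 3 most decreased genes listed under the cycle. *Suclg1* (chr6:73248382-73276911, plus strand) encodes the alpha subunit common to both forms, *Sucla2* (chr14:73525319-73596142, plus strand) the ATP-forming beta subunit and *Suclg2* the GTP-forming beta subunit. *Suclg1* read 369.7, 446 and 369 CPM in noncystic +/+ kidneys and 409, 372 and 364 CPM in noncystic Δ17/Δ17 kidneys. Cystic *Suclg1* levels were 205, 183 and 199 CPM in cystic +/+ kidneys and 267, 231 and 220.2 CPM in cystic Δ17/Δ17 kidneys. *Sucla2* read 279.7, 388 and 285 CPM in noncystic +/+ kidneys and 314, 276 and 255 CPM in noncystic Δ17/Δ17 kidneys, with wide spread among noncystic mice. The highest of them was mouse 20, which was also highest in fat markers. That mouse read highest for *Suclg1*, *Idh3a* and *Cs* as well, so the decreases of these genes rest partly on it. Cystic *Sucla2* levels were 145, 147 and 152 CPM in cystic +/+ kidneys and 223, 158 and 169.7 CPM in cystic Δ17/Δ17 kidneys, and mouse 28 stood above the other cystic mice. *Suclg2* read 327, 325 and 367 CPM in noncystic +/+ kidneys, 359.7, 351 and 378 in noncystic Δ17/Δ17 kidneys, 226, 199 and 207 in cystic +/+ kidneys and 247, 236 and 229 in cystic Δ17/Δ17 kidneys. The log2 fold changes in *Pkd2* +/+ mice were -1.01 ± 0.0978 for *Suclg1*, -1.10 ± 0.14 for *Sucla2* and -0.69 ± 0.0795 (SE) for *Suclg2*.

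Fumarate hydratase and the mitochondrial malate dehydrogenase close the cycle. *Fh1* read 318, 361 and 303 CPM in noncystic +/+ kidneys, 344, 304 and 303 in noncystic Δ17/Δ17 kidneys, 175, 180.5 and 179.7 in cystic +/+ kidneys and 237, 202 and 190.0 in cystic Δ17/Δ17 kidneys. *Mdh1* (chr11:21556787-21572367, minus strand) encodes the cytosolic malate dehydrogenase of the malate-aspartate shuttle, and its exons overlap *Wdpcp* on the other strand. *Mdh1* read 1424, 1567 and 1334 CPM in noncystic +/+ kidneys and 1528, 1243 and 1308 CPM in noncystic Δ17/Δ17 kidneys. Cystic *Mdh1* levels were 700.4, 636 and 614 CPM in cystic +/+ kidneys and 856, 800.0 and 765 CPM in cystic Δ17/Δ17 kidneys. *Mdh2*, the mitochondrial enzyme of the cycle, read 578, 654 and 534 CPM in noncystic +/+ kidneys and 584, 502 and 529.7 CPM in noncystic Δ17/Δ17 kidneys. Cystic *Mdh2* levels were 377, 349.9 and 398 CPM in cystic +/+ kidneys and 423, 403 and 379 CPM in cystic Δ17/Δ17 kidneys. *Mdh1* fell by 1.15 on the log2 scale in *Pkd2* +/+ mice (SE 0.10, adjusted p = 3.27e-07 in edgeR), to 45.1% of the noncystic level, and *Mdh2* to 63.7%. Per length, the ratio of *Mdh1* to *Mdh2* was 1.65 to 1.71 in noncystic +/+, 1.69 to 1.79 in noncystic Δ17/Δ17, 1.06 to 1.27 in cystic +/+ and 1.36 to 1.39 in cystic Δ17/Δ17 mice. This ratio does not depend on library scaling, and it was computed for 8 pairs of genes chosen after their values were seen, so none was tested.

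Branched-chain breakdown starts with *Bcat2*, the mitochondrial transaminase, whose exons overlap *0610005C13Rik* on the other strand. *Bcat2* read 125, 127 and 112 CPM in noncystic +/+ kidneys and 119, 115 and 112 CPM in noncystic Δ17/Δ17 kidneys. Cystic *Bcat2* levels were 66.7, 57.6 and 61.9 CPM in cystic +/+ kidneys and 65.5, 72.7 and 70.5 CPM in cystic Δ17/Δ17 kidneys. The branched-chain ketoacid dehydrogenase then commits the carbon to oxidation, with *Bckdha* and *Bckdhb* as its E1 subunits and *Dbt* as its E2 core. *Bckdha*, whose exons overlap *B3gnt8* on the other strand, read 33.3, 44.4 and 46.1 CPM in noncystic +/+ kidneys, 44.7, 45.3 and 41.4 in noncystic Δ17/Δ17 kidneys, 22.2, 20.5 and 19.4 in cystic +/+ kidneys and 26.4, 22.2 and 23.8 in cystic Δ17/Δ17 kidneys. *Bckdhb* (chr9:83925145-84124240, plus strand) read 68.6, 76.5 and 57.8 CPM in noncystic +/+ kidneys and 66.9, 54.4 and 57.0 CPM in noncystic Δ17/Δ17 kidneys. Cystic *Bckdhb* levels were 36.002, 35.7 and 37.8 CPM in cystic +/+ kidneys and 49.6, 49.6 and 48.1 CPM in cystic Δ17/Δ17 kidneys, and its cystic Δ17/Δ17 mice lay close together. *Dbt* read 118, 114 and 119 CPM in noncystic +/+ kidneys, 128, 126 and 114 in noncystic Δ17/Δ17 kidneys, 68.1, 58.5 and 65.8 in cystic +/+ kidneys and 77.1, 78.2 and 76.5 in cystic Δ17/Δ17 kidneys. All 3 subunits fell in *Pkd2* +/+ mice, at -0.996 for *Bckdha*, -0.89 for *Bckdhb* and -0.86 for *Dbt*, and *Bcat2* changed by -0.96.

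The leucine branch runs through *Ivd* (isovaleryl-CoA dehydrogenase), the biotin enzyme 3-methylcrotonyl-CoA carboxylase with subunits *Mccc1* and *Mccc2*, and *Auh* (3-methylglutaconyl-CoA hydratase). *Ivd* read 189, 187 and 230.2 CPM in noncystic +/+ kidneys, 207, 204 and 193 in noncystic Δ17/Δ17 kidneys, 114, 92.1 and 121 in cystic +/+ kidneys and 126, 148 and 137 in cystic Δ17/Δ17 kidneys. *Mccc1* (chr3:35959312-36000678, minus strand), which has 3 transcribed neighbours on the other strand of its exons, read 111, 118 and 128 CPM in noncystic +/+ kidneys and 123, 130.0 and 135 CPM in noncystic Δ17/Δ17 kidneys. Cystic *Mccc1* levels were 63.1, 56.0 and 59.1 CPM in cystic +/+ kidneys and 75.1, 84.1 and 73.8 CPM in cystic Δ17/Δ17 kidneys. Its cystic +/+, cystic Δ17/Δ17 and noncystic mice did not overlap. *Mccc2* (chr13:99948530-100015639, minus strand) read 127, 138 and 131 CPM in noncystic +/+ kidneys and 132, 132 and 121 CPM in noncystic Δ17/Δ17 kidneys. Cystic *Mccc2* levels were 77.4, 73.7 and 67.8 CPM in cystic +/+ kidneys and 100.1, 94.9 and 87.4 CPM in cystic Δ17/Δ17 kidneys. *Auh* read 137, 147 and 145 CPM in noncystic +/+ kidneys, 138, 128 and 147 in noncystic Δ17/Δ17 kidneys, 77.8, 63.9 and 80.9 in cystic +/+ kidneys and 87.2, 88.2 and 82.1 in cystic Δ17/Δ17 kidneys. All 4 leucine genes fell in *Pkd2* +/+ mice, to 53.9% of the noncystic level for *Ivd*, 49.96% for *Mccc1*, 55.4% for *Mccc2* and 52.0% for *Auh*.

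The valine branch held the steepest decrease. Its enzymes among the 36 act in the order *Acad8* (isobutyryl-CoA dehydrogenase), *Hibch* (3-hydroxyisobutyryl-CoA hydrolase), *Hibadh* (3-hydroxyisobutyrate dehydrogenase) and *Aldh6a1* (methylmalonate semialdehyde dehydrogenase), which also serves thymine breakdown. *Acad8* read 76.3, 81.0 and 80.3 CPM in noncystic +/+ kidneys, 78.8, 79.4 and 75.7 in noncystic Δ17/Δ17 kidneys, 53.0, 48.8 and 51.5 in cystic +/+ kidneys and 62.6, 58.1 and 54.6 in cystic Δ17/Δ17 kidneys. *Hibch* read 52.9, 65.3 and 49.3 CPM in noncystic +/+ kidneys, 57.6, 52.0 and 58.0 in noncystic Δ17/Δ17 kidneys, 30.2, 29.2 and 30.7 in cystic +/+ kidneys and 40.0, 35.4 and 35.7 in cystic Δ17/Δ17 kidneys. *Hibadh* (chr6:52546228-52640389, minus strand), whose exons overlap *Gm24355* on the same strand, read 433, 443 and 446 CPM in noncystic +/+ kidneys and 435, 395 and 431 CPM in noncystic Δ17/Δ17 kidneys. Cystic *Hibadh* levels were 199.7, 192 and 197 CPM in cystic +/+ kidneys and 250.02, 246 and 226 CPM in cystic Δ17/Δ17 kidneys, again with cystic +/+, cystic Δ17/Δ17 and noncystic mice apart. *Aldh6a1* (chr12:84430717-84451004, minus strand), whose exons overlap *Bbof1* on the other strand, read 536, 532 and 584 CPM in noncystic +/+ kidneys and 580.3, 588 and 568 CPM in noncystic Δ17/Δ17 kidneys. Cystic *Aldh6a1* levels were 208, 163 and 195 CPM in cystic +/+ kidneys and 300.2, 301 and 241 CPM in cystic Δ17/Δ17 kidneys, with no overlap between cystic +/+, cystic Δ17/Δ17 and noncystic mice.

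Across these valine genes the decreases in *Pkd2* +/+ mice grew in the order listed. They were -0.63 ± 0.0721 for *Acad8*, -0.89 ± 0.10 for *Hibch*, -1.17 ± 0.0747 for *Hibadh* and -1.55 ± 0.10 (SE) for *Aldh6a1*. The order does not extend to the whole pathway, since the earlier steps *Bcat2*, *Bckdha*, *Bckdhb* and *Dbt* each fell more than *Acad8*. Valine steps outside the 36 genes are not part of it. The adjusted p was 3.00e-08 for *Aldh6a1* and 2.05e-08 for *Hibadh* in edgeR. The order among the valine genes was noticed in these values and was not tested. Per length, the ratio of *Aldh6a1* to *Acad8* was 5.52 to 6.12 in noncystic +/+, 6.20 to 6.31 in noncystic Δ17/Δ17, 2.80 to 3.29 in cystic +/+ and 3.71 to 4.36 in cystic Δ17/Δ17 mice. Cystic mice of either *Pkd2* genotype held less *Aldh6a1* RNA per *Acad8* RNA than any noncystic mouse. The pair joins the largest and the smallest decrease of these valine genes and was chosen after the values were seen. Its ratio restates both decreases and adds no support for the order.

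The isoleucine branch is represented by *Acadsb*, the dehydrogenase for short branched chains, and the propionyl-CoA that isoleucine and valine yield is taken up by the biotin enzyme propionyl-CoA carboxylase, made of *Pcca* and *Pccb*. *Acadsb* (chr7:131410601-131448944, plus strand) read 214, 206 and 218 CPM in noncystic +/+ kidneys and 220.2, 209.8 and 206 CPM in noncystic Δ17/Δ17 kidneys. Cystic *Acadsb* levels were 106, 109 and 102 CPM in cystic +/+ kidneys and 131, 132 and 128 CPM in cystic Δ17/Δ17 kidneys. Replicates lay close together for *Acadsb*, whose SE of 0.0669 was the smallest of the 36 genes in this comparison. *Pcca* (chr14:122534324-122891100, plus strand), whose exons overlap *Ggact* on the other strand, read 161, 182 and 173 CPM in noncystic +/+ kidneys and 183, 185 and 176 CPM in noncystic Δ17/Δ17 kidneys. Cystic *Pcca* levels were 90.0, 87.3 and 82.6 CPM in cystic +/+ kidneys and 121, 118 and 102 CPM in cystic Δ17/Δ17 kidneys. *Pccb* read 520.1, 602 and 605 CPM in noncystic +/+ kidneys, 577, 502 and 571 in noncystic Δ17/Δ17 kidneys, 303, 286 and 298 in cystic +/+ kidneys and 358, 369.5 and 314 in cystic Δ17/Δ17 kidneys. The decreases in *Pkd2* +/+ mice were -1.01 for *Acadsb*, -0.99 for *Pcca* and -0.96 for *Pccb*. The ratio of *Pccb* to *Pcca* per length stayed between 3.03 and 4.03 in all 12 mice.

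Among the genes of glutamate, aspartate and creatine, the changes spread widely. *Glud1*, glutamate dehydrogenase, read 659.7, 670.1 and 746 CPM in noncystic +/+ kidneys, 742, 657 and 797 in noncystic Δ17/Δ17 kidneys, 385, 363 and 374 in cystic +/+ kidneys and 492, 448 and 419 in cystic Δ17/Δ17 kidneys. *Got1* (chr19:43499752-43524605, minus strand), the cytosolic aspartate transaminase, read 131, 125 and 129 CPM in noncystic +/+ kidneys and 128, 128 and 116 CPM in noncystic Δ17/Δ17 kidneys. Cystic *Got1* levels were 104, 93.8 and 90.3 CPM in cystic +/+ kidneys and 106, 120.5 and 117 CPM in cystic Δ17/Δ17 kidneys. *Got1* changed least of the 36 genes in *Pkd2* +/+ mice, at -0.42 ± 0.0770 (SE, adjusted p = 4.53e-04 in edgeR). *Got2*, its mitochondrial counterpart, whose exons overlap *Gm45760* on the other strand, read 315, 317 and 293 CPM in noncystic +/+ kidneys, 320.4, 268 and 313 in noncystic Δ17/Δ17 kidneys, 207, 179.9 and 202 in cystic +/+ kidneys and 218, 248 and 207 in cystic Δ17/Δ17 kidneys. It changed by -0.65 in *Pkd2* +/+ mice, and the ratio of *Got1* to *Got2* per length lay between 0.482 and 0.542 in noncystic +/+, 0.455 and 0.588 in noncystic Δ17/Δ17, 0.551 and 0.641 in cystic +/+ and 0.598 and 0.697 in cystic Δ17/Δ17 mice, so that the noncystic Δ17/Δ17 and cystic +/+ ranges overlapped.

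*Gatm* (chr2:122594467-122611303, minus strand) encodes glycine amidinotransferase, which makes guanidinoacetate. It read 1028, 969 and 1006 CPM in noncystic +/+ kidneys and 1248, 1022 and 1164 CPM in noncystic Δ17/Δ17 kidneys. Cystic *Gatm* levels were 467, 319 and 454 CPM in cystic +/+ kidneys and 604, 529 and 346 CPM in cystic Δ17/Δ17 kidneys. *Gatm* fell to 41.3% of the noncystic level in *Pkd2* +/+ mice, a log2 fold change of -1.28 with the largest SE of the 36 genes (0.17, adjusted p = 2.06e-05 in edgeR). Mice 26 and 30 were the lowest, and the 2 cystic groups overlapped.

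**Figure D2:**
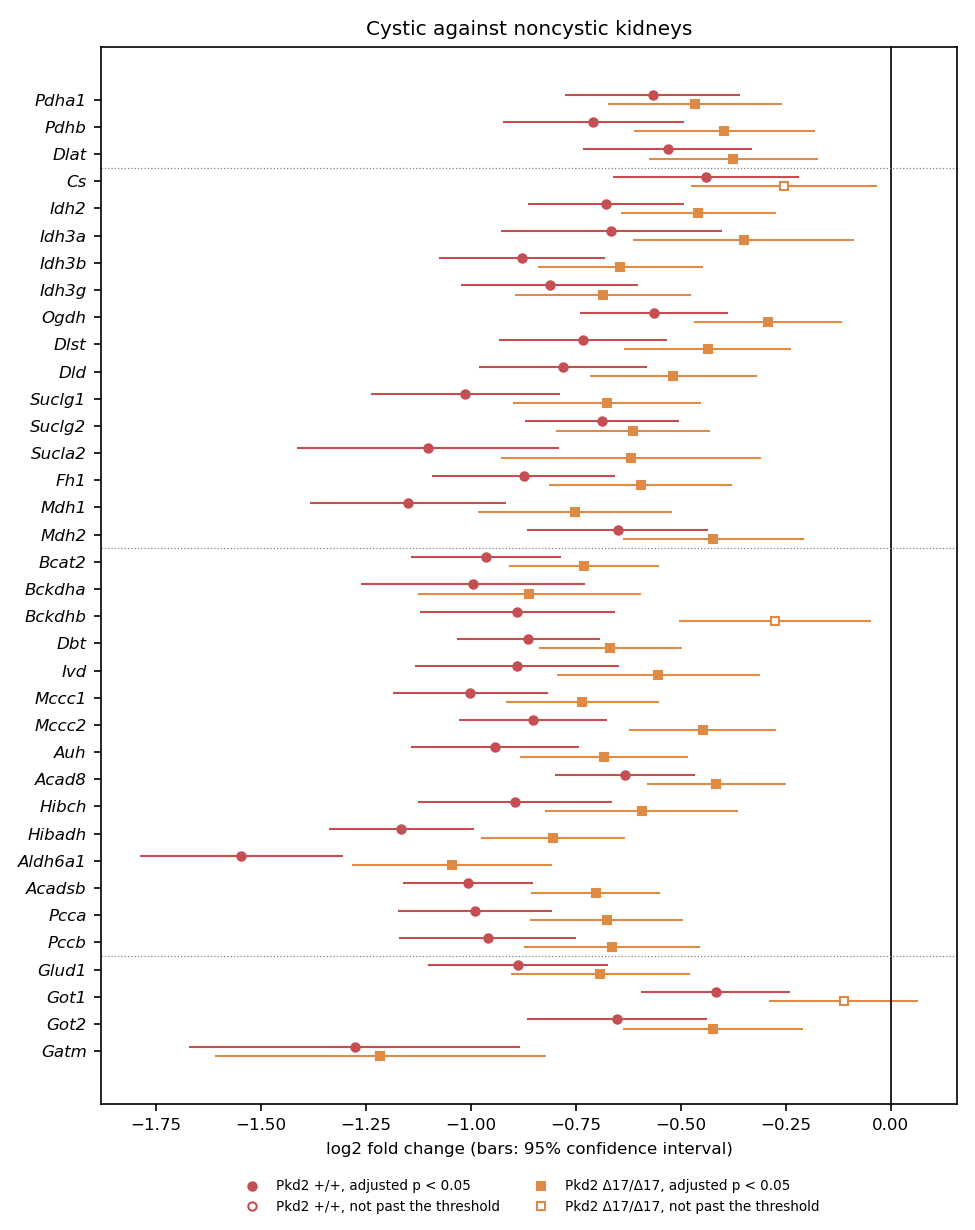
Points give the log2 fold change of each gene between cystic and noncystic kidneys (x axis) in *Pkd2* +/+ mice (circles) and *Pkd2* Δ17/Δ17 mice (squares), with bars for the 95% confidence interval and filled symbols at an adjusted p under 0.05. All 36 circles lie below 0, from -1.55 to -0.42, and 33 of 36 squares are filled, with *Cs*, *Bckdhb* and *Got1* left unfilled.

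Most other genes of these pathways were lower as well. In a further list of 66 genes of the same pathways, all of which were tested, 49 were called lower and 2 higher in cystic *Pkd2* +/+ kidneys, and the median log2 fold change was -0.65. Among all 24642 genes tested, 14.2% were called lower and 4170 genes were called higher. By list, 25 of 34 further TCA and anaplerosis genes, 15 of 17 branched-chain genes and 9 of 15 glutamate, aspartate and creatine genes were called lower. The 5 lowest called were *Pck1* (phosphoenolpyruvate carboxykinase of gluconeogenesis) at -2.37, *Slc13a2* (an apical citrate transporter) at -1.69, *Glul* (glutamine synthetase) at -1.57, *Pcx* (pyruvate carboxylase) at -1.56 and *Bcat1* (the cytosolic branched-chain transaminase) at -1.42. The 5 highest called were *Me2* (mitochondrial malic enzyme) at 0.80, *Oat* (ornithine aminotransferase) at 0.42, the aspartate-glutamate carriers *Slc25a12* at -0.26 and *Slc25a13* at -0.30, and *Mmachc* (of cobalamin processing) at -0.31. *Me2* stood at 17.2, 17.1 and 17.4 CPM in noncystic +/+ and 30.04, 31.2 and 28.6 CPM in cystic +/+ kidneys, and *Oat* at 261, 256 and 262 and 359, 356 and 328 CPM, so both rose while every one of the 36 genes fell.

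Without the miR-17 motif in *Pkd2*, the same 36 genes all had negative log2 fold changes with cystic disease, though not all passed the test. Between cystic and noncystic *Pkd2* Δ17/Δ17 kidneys, 33 of the 36 genes were called lower and 0 higher, with a median log2 fold change of -0.60. Of all genes tested 10.2% were called lower here, and 21.7% of those at or above the level of the lowest of the 36. The 3 genes that did not pass the test were *Cs* at -0.25 (adjusted p = 0.0696 in edgeR), *Bckdhb* at -0.28 (adjusted p = 0.0566 in edgeR) and *Got1* at -0.11 (adjusted p = 0.346 in edgeR). In 35 of the 36 genes the cystic mice all lay below the noncystic mice, with *Got1* the exception, against 17.7% of all genes tested. The lowest values were again those of *Gatm* at -1.22 ± 0.17 and *Aldh6a1* at -1.04 ± 0.10 (SE). By role the medians were -0.40 for pyruvate dehydrogenase, -0.56 for the TCA cycle, -0.68 for branched-chain catabolism and -0.56 for glutamate, aspartate and creatine. Without mouse 30, the highest in adrenal markers, 32 were called and the median was -0.57. The 36 genes summed to between 12641 and 13910 CPM in noncystic and between 7926 and 9176 CPM in cystic *Pkd2* Δ17/Δ17 kidneys.

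In the further list, 40 of 66 genes were called lower and 2 higher, *Me2* at 0.29 and *Oat* at 0.38, in cystic *Pkd2* Δ17/Δ17 kidneys. Among all genes tested, 10.2% were called lower, and 5679 of 24642 were called in either direction. The 22 TCA and anaplerosis genes called lower, between -2.00 and -0.30, included *Aco1*, *Sdha*, *Sdhb*, *Sdhc*, *Sdhd*, *Idh1*, *Mpc1*, *Mpc2*, *Pdhx*, *Pdk1*, *Pdk2*, *Pdk4*, *Pdp2*, *Pcx*, *Me1*, *Pck1*, *Slc25a1*, *Slc25a10*, *Slc25a11*, *Slc13a2* and *Slc13a3*. They include all subunits of succinate dehydrogenase, the mitochondrial pyruvate carrier and both kidney dicarboxylate transporters of the *Slc13* family. The 13 branched-chain genes called lower, between -2.19 and -0.39, included *Bcat1*, *Ppm1k*, *Acat1*, *Echs1*, *Hadh*, *Hsd17b10*, *Mmut*, *Mcee*, *Mmaa*, *Abat*, *Acsf3* and *Oxct1*. The 5 others were *Glul*, *Gpt*, *Aldh4a1*, *Prodh* and *Slc6a8*, between -1.45 and -0.33.

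Deleting the *Pkd2* motif in cystic mice was accompanied by higher levels of 7 branched-chain genes. Between cystic *Pkd2* Δ17/Δ17 and cystic *Pkd2* +/+ kidneys, 7 of the 36 genes were called higher and 0 lower, against 1.19% of all genes tested called higher and 2.85% of those at or above the level of the lowest of the 36. The 7 were *Aldh6a1* at 0.57 ± 0.10, *Bckdhb* at 0.43 ± 0.10, *Pcca* at 0.39 ± 0.0794, *Mccc1* at 0.39 ± 0.0796, *Mccc2* at 0.37 ± 0.0762, *Acadsb* at 0.30 ± 0.0666 and *Hibadh* at 0.29 ± 0.0740 on the log2 scale (SE). They serve all 3 branches and the propionyl-CoA step that follows. Adjusted p in edgeR ran from 0.00902 for *Aldh6a1* to 0.0497 for *Hibadh*. The other 29 genes, among them all 17 of pyruvate dehydrogenase and the TCA cycle, did not pass the test, and the nearest was *Ogdh* at 0.30 (adjusted p = 0.0549 in edgeR). All 36 values were positive, from 0.10 for *Mdh2* to 0.57, with a median of 0.25 against 0.00076 over all genes tested, and 27 had an unadjusted p under 0.05, while 7.16% of all genes tested had a positive value with such a p. Role medians were 0.22 for pyruvate dehydrogenase, 0.23 for the TCA cycle, 0.30 for branched-chain catabolism and 0.25 for glutamate, aspartate and creatine. In 29 genes the 3 Δ17/Δ17 mice lay above the 3 +/+ mice, as in 8.79% of all genes tested, and the groups overlapped for *Dlat*, *Cs*, *Idh3g*, *Mdh2*, *Bcat2*, *Got2* and *Gatm*.

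The levels reached by the 7 genes stayed under the noncystic range. *Aldh6a1* averaged 551 ± 29.1 CPM in noncystic +/+, 189 ± 23.2 CPM in cystic +/+ and 281 ± 34.5 CPM in cystic Δ17/Δ17 kidneys (SD, n = 3). *Pcca* averaged 172 ± 10.4, 86.7 ± 3.74 and 114 ± 10.3 CPM in the same groups. *Bckdhb* came nearest to its noncystic level, with 67.6 ± 9.41, 36.5 ± 1.13 and 49.1 ± 0.838 CPM. The highest cystic Δ17/Δ17 mouse was below the lowest noncystic +/+ mouse for each of the 7 genes. Over all 36 genes, cystic Δ17/Δ17 means ran from 49.3% of the noncystic +/+ mean for *Gatm* to 89.4% for *Got1*, with a median of 66.3%. In the further list, only *Mmut* (methylmalonyl-CoA mutase) at 0.44 ± 0.0937 and *Abat* (4-aminobutyrate aminotransferase) at 0.52 ± 0.10 (SE) were called, both higher, of the 66 genes tested. Among all genes tested, 1.19% were called higher.

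**Figure D3:**
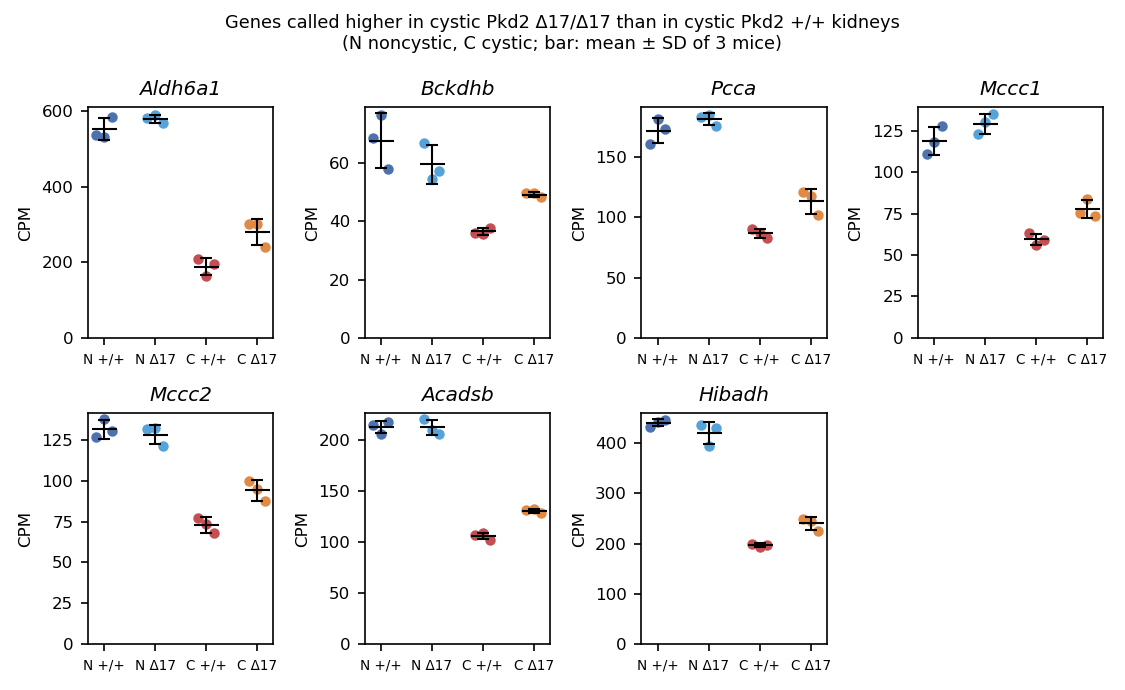
Each panel gives the CPM (y axis, from 0) of 1 of the 7 genes called higher in cystic *Pkd2* Δ17/Δ17 than in cystic *Pkd2* +/+ kidneys, with 1 point per mouse in the 4 groups (N noncystic, C cystic) and bars for mean ± SD. In every panel the cystic Δ17/Δ17 mice lie above the cystic +/+ mice and below the noncystic +/+ mice.

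These 7 calls depend on single mice and on the test. Without mouse 28 or without mouse 29 of the cystic Δ17/Δ17 group, 0 of the 36 genes were called in edgeR, with 17 and 23 genes at an unadjusted p under 0.05, while 0.336% and 0.304% of all genes tested were called higher. Without mice 26 or 27 of the cystic +/+ group 4 and 1 of the 36 genes were called, against 1.01% and 0.284% of all genes tested. Without mouse 25 or mouse 30, the latter the highest in adrenal markers, the count was 7, against 1.89% and 1.62% of all genes tested. DESeq2 called 14 of the 36, and 3.12% of the genes it tested were called higher. The median stayed between 0.20 and 0.30 when any 1 mouse was left out, and all 36 values stayed positive in every alternative tried.

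In noncystic kidneys the motif deletion had no detected effect on these genes. Of the 36 genes 0 were called in edgeR, 0 in DESeq2, and 0 had an unadjusted p under 0.05 in edgeR, against 0.00406% of all genes tested called in either direction. The log2 fold changes ran from -0.19 for *Bckdhb* (95% interval -0.41 to 0.04) to 0.19 for *Gatm* (95% interval -0.19 to 0.58), with 14 positive, 22 negative and a median of -0.03. The Δ17/Δ17 and +/+ mice overlapped for all 36 genes, while 10.8% of all genes tested had groups that did not. For *Aldh6a1* the value was 0.07, with an interval of -0.16 to 0.31 in noncystic kidneys.

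Whether the deletion acted differently in cystic and noncystic kidneys was tested as an interaction. Of the 36 genes 0 passed in edgeR, against 0.0122% of all genes tested. All 36 interaction values were positive, from 0.06 for *Gatm* to 0.61 for *Bckdhb*, 21 had an unadjusted p under 0.05 (4.29% of all genes tested had a positive value with such a p), and the lowest adjusted p in edgeR was 0.172, that of *Bckdhb*. DESeq2 called 2 of the 36, with 0.910% of the genes it tested called in either direction, and edgeR without a low-count cutoff called 3, with 1.71% of all genes called. The comparisons share mice, since the 3 cystic +/+ kidneys stand in both the disease comparison and the deletion comparison, so an opposite sign in the 2 is not an independent result. Set side by side, *Aldh6a1* was -1.55 with disease in +/+ mice, -1.04 with disease in Δ17/Δ17 mice, 0.57 with deletion in cystic and 0.07 with deletion in noncystic mice. *Gatm* was -1.28, -1.22, 0.25 and 0.19 in the same order.

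**Figure D4:**
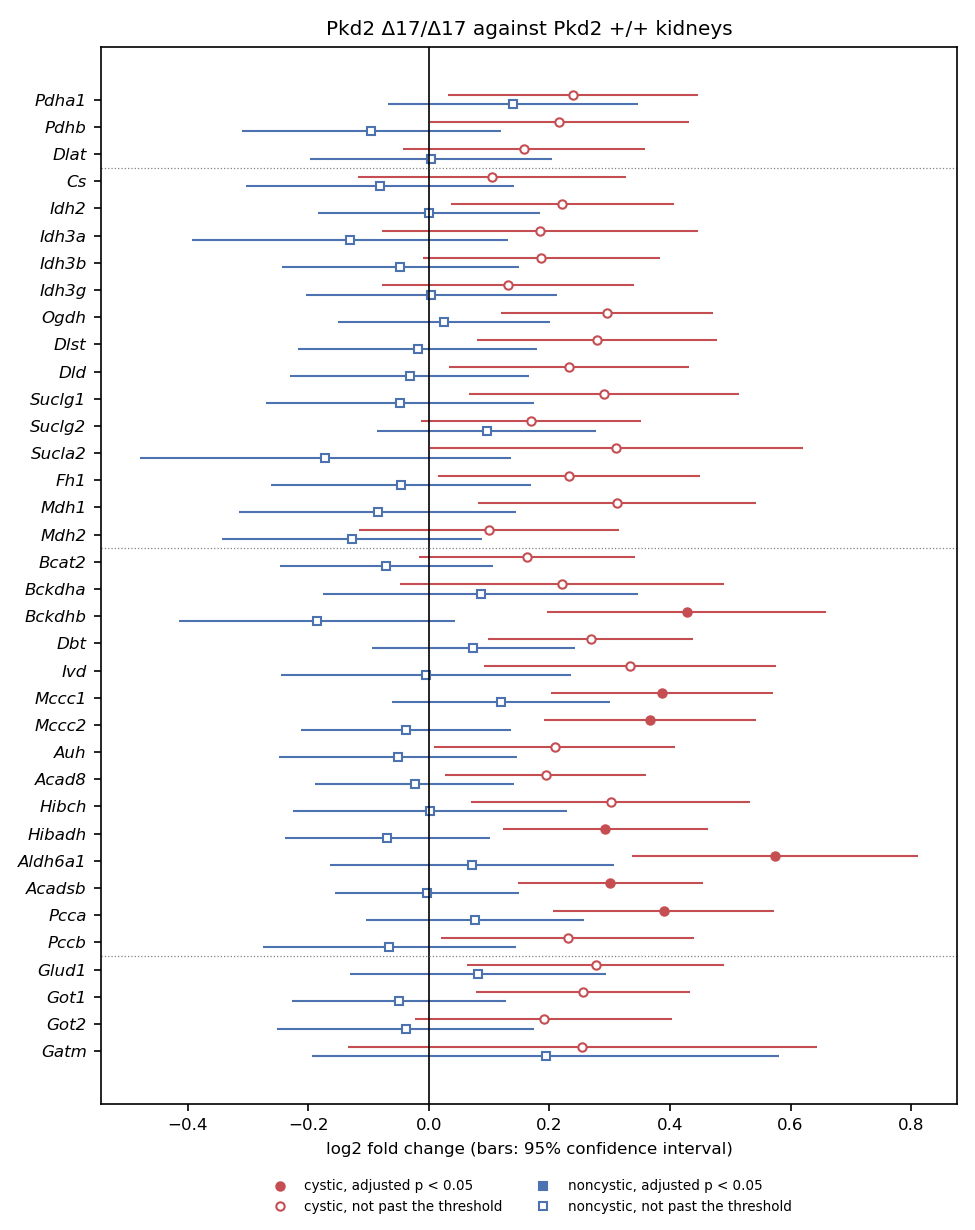
Points give the log2 fold change of each gene between *Pkd2* Δ17/Δ17 and *Pkd2* +/+ kidneys (x axis) in cystic mice (circles) and noncystic mice (squares), with bars for the 95% confidence interval and filled symbols at an adjusted p under 0.05. Circles lie between 0.10 and 0.57 with 7 filled, all of branched-chain genes, and squares lie between -0.19 and 0.19 with none filled.

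Markers of several cell types moved in the same comparisons. Between cystic and noncystic *Pkd2* +/+ kidneys, 14.2% of all 24642 genes tested were called lower and 4170 genes were called higher. In *Pkd2* +/+ mice, 12 of 12 proximal tubule markers were lower in cystic kidneys, with a median log2 fold change of -1.21, and the 3 noncystic mice summed to between 11222 and 13229 CPM and the 3 cystic mice to between 3933 and 5585 CPM. A list of 12 general mitochondrial genes (import, matrix proteases and chaperones, transcription) was lower in 12 of 12 with a median of -0.42, and its sum was 3484 to 3757 CPM without and 2467 to 2497 CPM with cysts. Of 8 thick ascending limb and distal tubule markers 6 were lower and 1 higher, and of 8 collecting duct markers 3 were lower and 3 higher. All 4 podocyte markers were lower (median -1.25), 2 of 5 endothelial markers and 1 of 5 lymphocyte markers were lower, and 5 of 5 red blood cell markers were lower (median -1.41). All 6 macrophage markers were higher (median 1.82, summing to 121 to 127 CPM without and 283 to 392 CPM with cysts), as were 5 of 6 fibroblast markers (median 1.03). Fat markers were lower in 5 of 5 (median -2.25, summing to 651 to 1346 CPM without and 207 to 304 CPM with cysts). None of 5 adrenal and none of 3 tested muscle markers was called, with *Cyp11b1* at 0 in noncystic +/+ kidneys and *Myh1* at 0 in both Δ17/Δ17 groups. Without mouse 20, the highest in fat markers, the median of the 36 genes was -0.83 and 36 were called lower, and without mouse 27, the highest in adrenal markers of the cystic +/+ group, it was -0.88 with 36 called. The part of the other cell types in the decrease of the 36 genes was not tested.

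In *Pkd2* Δ17/Δ17 mice, cystic kidneys were lower in 11 of 12 proximal tubule markers (median -1.12), 8 of 12 general mitochondrial genes (median -0.34) and 3 of 5 fat markers (median -1.55), and higher in 6 of 6 macrophage markers (median 1.18). They were also lower in 4 of 4 podocyte markers (median -0.99), 5 of 5 red blood cell markers (median -1.51), 2 of 5 endothelial markers and 1 of 5 lymphocyte markers, and higher in 5 of 6 fibroblast markers (median 1.03). Of 8 thick ascending limb and distal tubule markers 4 were lower and 1 higher, of 8 collecting duct markers 3 were lower and 2 higher, and none of 3 tested muscle markers was called, with 1 at an unadjusted p under 0.05 in edgeR. All 5 adrenal markers were called higher there, and mouse 30 was the only one of the 3 cystic mice with a raised sum. In this comparison 10.2% of all genes tested were called lower, and 5679 of 24642 were called in either direction.

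With the motif deletion in cystic mice, fewer genes of these lists were called. Here 1.19% of all genes tested were called higher, and 549 of 24642 were called in either direction. Proximal tubule markers were higher in 5 of 12 (median 0.36) and summed to 5306 to 6985 CPM in cystic *Pkd2* Δ17/Δ17 kidneys. Mouse 30 lay lowest of its group both in these markers, at 5306 CPM, and in the sum of the 36 genes, at 7926 CPM. Macrophage markers were lower in 3 of 6 (median -0.56, 215 to 271 CPM summed), 1 of 8 thick ascending limb and distal tubule markers was higher, and 0 of 12 general mitochondrial genes were called (median 0.09, 2604 to 2877 CPM summed, 3 at an unadjusted p under 0.05 in edgeR). Summed proximal tubule markers overlapped between cystic +/+ and cystic Δ17/Δ17 mice, and the summed 36 genes did not. Summed thick ascending limb and distal tubule markers lay apart too, at 2016 to 2624 CPM in cystic +/+ and 3598 to 3850 CPM in cystic Δ17/Δ17 mice. Sums of general mitochondrial genes, macrophage markers and lymphocyte markers also lay apart, and those of the other marker lists overlapped. Whether these shifts bear on the 7 branched-chain genes was not tested.

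**Figure D5:**
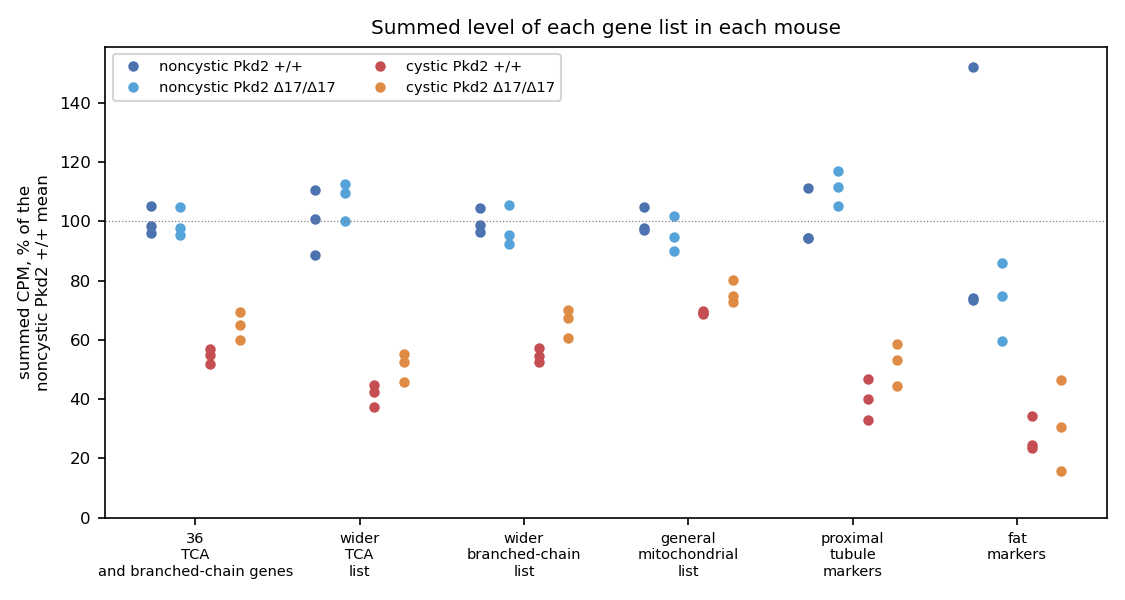
Points give the summed CPM of 6 gene lists in each mouse as a percentage of the noncystic *Pkd2* +/+ mean (y axis, from 0), coloured by group. The 36 genes lie at 51.8% to 56.8% in cystic *Pkd2* +/+ and at 59.9% to 69.3% in cystic *Pkd2* Δ17/Δ17 mice, proximal tubule markers at 33.1% to 46.9% and 44.6% to 58.7%, and mouse 20 stands out in fat markers at 152%.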

How the data were processed

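The authors deposited raw counts of reads per gene for the 12 kidneys. Per their methods, paired reads were trimmed with Trim Galore 0.6.3, aligned to GRCm38 with STAR 2.5.3a and counted by its gene count mode with an Ensembl annotation. The strand setting is not given in the sources used here, so genes whose exons overlap another gene, 10 of the 36, are uncertain. No replicates were pooled. The 343 rows without a gene name, which carry Ensembl identifiers, held 0.0225% of the counts and were kept. All columns of samples were used, and groups followed the sample titles.

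Genes with a mean log2 CPM of at least -3 (prior count 2) entered 1 fit in edgeR 4.0.16 (R 4.3.3) over all 12 mice, with TMM factors, 1 mean per group, the quasi-likelihood test and Benjamini-Hochberg adjustment over 24642 genes. A gene was called at an adjusted p under 0.05. The study's methods used limma-trend, which is an alternative here (limma 3.58.1), as is DESeq2 1.42.0. RPKM used the longest principal transcript of each gene in GENCODE, and coordinates are on GRCm38. Replicates differed beyond counting noise, with chi-square per degree of freedom of 9.65 to 26.8 within groups, and nothing beyond their numbers says how the mice were related, so p-values measure the spread between these libraries.

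The 36 genes, the lists and the tests were chosen with earlier results of these data known. Genes were named by rule, with all 36 named by role, and values per mouse given for those called in any comparison other than disease in *Pkd2* +/+ mice, for the 6 lowest and 3 highest there and for fellow subunits. From the further list, the called genes with the 5 lowest and 5 highest values in that comparison and those called in the others were named, except some that are counted but not reported by name here.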

Additional observations from a re-analysis of the deposited data

How the results depend on the processing

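All 36 genes were called lower in cystic *Pkd2* +/+ kidneys under each of the 15 alternatives, and the median ran from -0.90 to -0.83 with any 1 mouse left out. It was -0.72 by limma-trend with library totals and -0.72 by edgeR with library totals in place of TMM, a scaling that shifts the median of all genes by 0.16, and relative to all genes the decrease moved by less than that. In *Pkd2* Δ17/Δ17 kidneys 32 to 34 genes were called with 1 mouse left out and 31 to 35 under the other settings, with a median of -0.66 to -0.56, of -0.45 by limma-trend and of -0.45 with library totals, where all genes shift by 0.15. The count most open to the settings was that of motif deletion in cystic kidneys, at 7 genes. It was 14 in DESeq2 (3.12% of all genes tested called higher), 1 when only the 2 groups compared were fitted (0.405%), 1 at an adjusted p under 0.01 (0.317%) and 0 to 7 with 1 mouse left out (0.284% to 1.89%, and 0 genes without mouse 28 or 29), while the median stayed between 0.20 and 0.30. Single genes in that comparison kept their side of the threshold in 455 of 504 refits, lost the call in 34 and gained it in 15. In noncystic kidneys 0 genes were called in any setting, with a median of -0.06 to 0.01 when 1 mouse was left out. The interaction called 0 genes with any 1 mouse left out, 2 in DESeq2 (0.910% of all genes tested) and 3 without a low-count cutoff (1.71%). No called gene reversed its sign. Apart from the stricter limit and the fits with fewer mice, the cause of these differences was not tested. The alternatives were run on the 36 genes and not on the further or marker lists. No paired analysis was possible because the replicate numbers in the titles, 19 to 30, are all different. With 3 mice a group the SE of a single gene in the disease comparison had a median of 0.0906 on the log2 scale, which limits what this design can detect.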
